A study of Drosophila melanogaster with 12 samples.

Results

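Females of Drosophila melanogaster that carried an extra msl-2 gene were set against males of the control stock, the sex that makes the MSL2 protein from its own gene. Of the 12 RNA-seq libraries of the series, 6 enter this comparison, 3 of MSL2 females and 3 of control males, chosen by the group names in the sample titles. Per the labels, MSL2 females had the genotype y w; (w+) H83M2-6I/+; +/+, in which the middle term is a P-element insertion of an msl2 construct marked with mini-white. Control males were y w; +/+; TM3/+ and so carried the third-chromosome balancer TM3, which MSL2 females lacked. Both groups shared the y and w mutations of the stock. Females and males of the controls had the same genotype, and control females serve here as a side reference. RNA came from whole adult flies of an age that the sources used here do not give, in 3 biological replicates per group. Because sex, the transgene and TM3 all change between MSL2 females and control males, their contributions to a difference cannot be told apart in this comparison alone.

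In the fly, males have 1 X chromosome and females 2, and males compensate by transcribing their X at a raised rate. The male-specific lethal (MSL) complex does this work: it is assembled from MSL1, MSL2, MSL3, the acetyltransferase MOF, the helicase MLE and the noncoding RNAs roX1 and roX2, and it spreads over the male X. In females the RNA-binding protein Sex-lethal (SXL) blocks translation of msl-2 messenger RNA, so the complex does not form. Forced expression of MSL2 is known to let it form on both female X chromosomes, in animals whose gonads, glands and splicing switches are otherwise set by the female sex determination pathway.

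The MSL2 female libraries held 56843908, 27729411 and 50930982 counts, and the control male libraries 53294740, 41975875 and 46966785, with 1 transcript kept per gene. Levels are given as CPM, counts scaled to the TMM-adjusted size of each library. In these libraries 3 counts equal 0.0559 to 0.107 CPM, a floor that covers counting error only. Correlation of log2 CPM between libraries of 1 group was 0.982 to 0.995. Libraries that stand apart touch some results: MSL2 female 1 had low transcript levels of late ovary genes and high levels of muscle genes, and MSL2 female 3 had the highest summed levels of the sperm, seminal fluid and Y lists among MSL2 females. Replicate spread reflects these samples, and the labels do not say whether they came from separate cultures.

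The marker transcripts followed the labels. Transcripts of msl-2 reached 513, 447 and 616 CPM in MSL2 females and 30.6, 32.4 and 31.9 CPM in control males. All MSL2 female libraries lay far above all males, with a log2 fold change of 4.05 ± 0.17 (SE; edgeR adjusted p = 8.35e-10), and reads of the transgene and of the resident gene were counted together. Transcripts of w, the gene of the mini-white marker, stood at 17.9, 18.3 and 20.0 CPM in MSL2 females against 4.26, 3.6 and 3.54 CPM in control males, a log2 fold change of 2.30 ± 0.20 (edgeR adjusted p = 6.46e-07). Yp1, which encodes a yolk protein made by female fat body and follicle cells, gave 3643, 4153 and 5357 CPM in MSL2 females and 16.1, 31.8 and 14.6 CPM in control males. In whole flies, fewer cells of a type and less RNA per cell cannot be told apart, here and in all tissue results that follow.

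The roX RNAs split. roX2 stood at 13.1, 14.1 and 9.67 CPM in MSL2 females and at 11.3, 11.9 and 11.1 CPM in control males, so the groups overlapped and the difference was not called (log2 fold change 0.10 ± 0.16, edgeR adjusted p = 0.601). roX1 stood at 112, 128 and 116 CPM in MSL2 females and at 353, 343 and 381 CPM in control males, with no overlap and a log2 fold change of −1.6 ± 0.39 (edgeR adjusted p = 0.00333). Control females held a mean of 4.12 CPM of roX1 and 0.162 CPM of roX2. MSL2 females therefore sat above control females for both RNAs, by 4.89 for roX1 (edgeR adjusted p = 0.00018) and 6.38 for roX2 (edgeR adjusted p = 1.75e-07), and below control males for roX1.

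**Figure D1:**
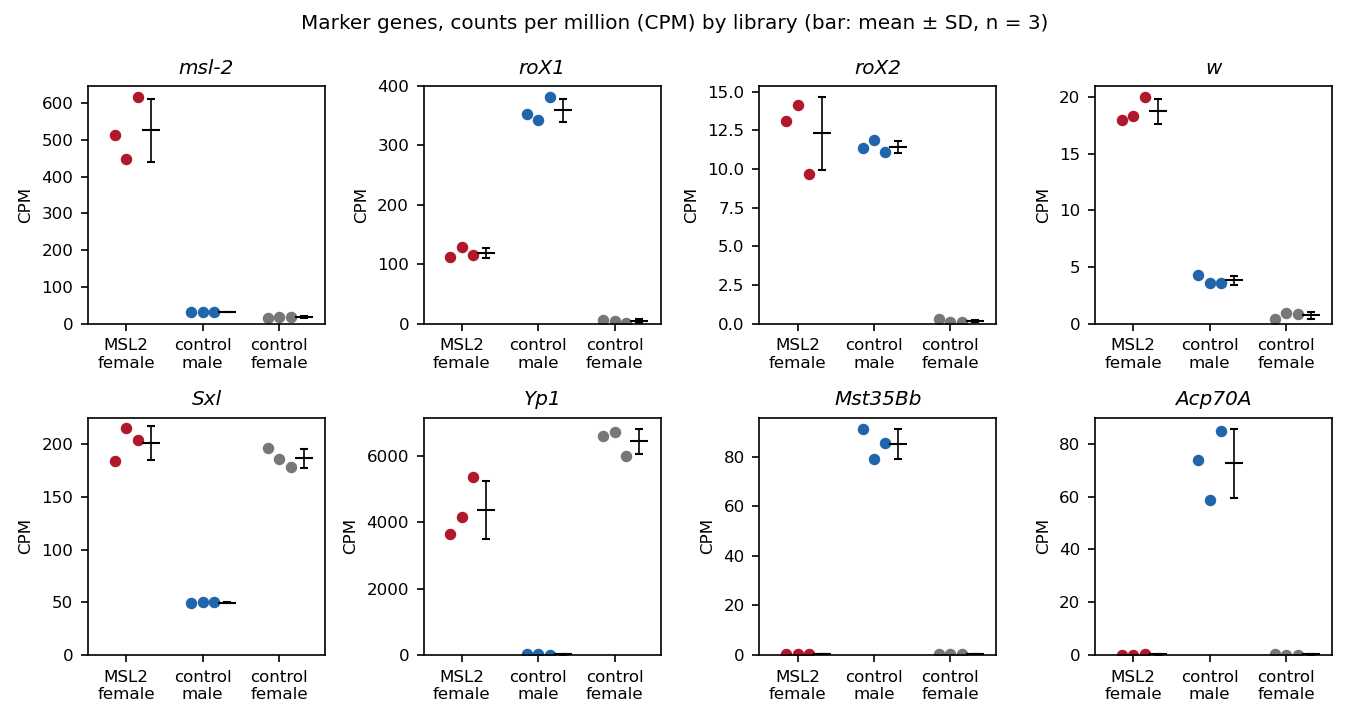
CPM (counts scaled to library size) of 8 marker genes in the 3 MSL2 female, 3 control male and 3 control female libraries, each point a library and the bar beside each group its mean ± SD. msl-2 is high in MSL2 females alone, roX2 is alike in MSL2 females and control males at 9.67 to 14.1 CPM, roX1 lies between the other groups, and the sperm gene Mst35Bb and the gland gene Acp70A are high in males alone.

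Among all 13060 genes tested, 9125 were called at an adjusted p under 0.05, which is 69.9% of them, with 5035 higher (38.6%) and 4090 lower (31.3%) in MSL2 females than in control males. Against that background the MSL complex list of 8 genes had 5 higher, 1 lower and 2 not called. msl-1, the scaffold that binds MSL2, stood at 44.2, 77.7 and 82.5 CPM in MSL2 females and 22.6, 24.7 and 23.8 CPM in control males (log2 fold change 1.52 ± 0.20, edgeR adjusted p = 3.23e-05). Control females held 93.6 CPM of msl-1, and MSL2 females did not differ from them by test (−0.46, edgeR adjusted p = 0.147). mof stood at 12.4, 15.2 and 17.0 CPM in MSL2 females and at 9.95, 9.87 and 9.94 CPM in control males (0.58 ± 0.12, edgeR adjusted p = 0.0013). The remaining members moved little. mle (0.17) and CG1832, which encodes the zinc finger adapter CLAMP (0.21), passed the threshold here and missed it under several other scalings, and msl-3 was not called (−0.15, edgeR adjusted p = 0.159). Without MSL2 female 2 the list had 2 lower genes.

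Genes for proteins reported to act with the complex or to bind near its sites were mostly higher in MSL2 females. Of 9 such genes 8 were called higher and 1 was not called, with a median log2 fold change of 0.96, beside 0.09 over all genes. Top2, a DNA topoisomerase, stood at 149, 290 and 324 CPM in MSL2 females and 50.3, 52.7 and 53.3 CPM in control males (2.29 ± 0.23, edgeR adjusted p = 2.82e-06). The nucleoporin gene Nup153 (1.29) and the chromodomain gene Chro (1.04) were also higher. Between MSL2 females and control females edgeR called 0 of the 9, with 3 at an unadjusted p under 0.05, and DESeq2 called 1 (Mtor, lower). The list's median between control females and control males was 1.18.

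Sex determination genes lay at the control female level in MSL2 females as far as the test could tell. Of 11 genes 8 were higher than in control males, 2 lower and 1 not called, beside the shares of all genes given above. Between MSL2 females and control females edgeR called 0 of the 11, with 1 (fru) at an unadjusted p under 0.05, DESeq2 called 0, and 10.3% of all genes were called by edgeR. Sxl, the switch gene of the pathway, stood at 184, 216 and 204 CPM in MSL2 females and 49.1, 50.2 and 50.2 CPM in control males (2.01 ± 0.07, edgeR adjusted p = 2.49e-10). tra, whose splicing SXL controls, stood at 11.6, 11.6 and 13.4 CPM against 6.11, 4.85 and 6.15 CPM (1.09 ± 0.12, edgeR adjusted p = 6.06e-06). The SXL partner genes snf (0.96), fl(2)d (0.60) and vir (0.58) were higher, as were ix (0.55), her (0.53) and tra2 (0.38). dsx, the sex-specific transcription factor at the end of the pathway, was lower with the transcript kept here (−0.97 ± 0.11, edgeR adjusted p = 1.2e-05) and reversed to 0.57 when its least counted transcript was used. The other lower gene was dsf (−2.28), at 0.782 CPM or less in every library of this comparison, and fru was not called (−0.05, edgeR adjusted p = 0.594).

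Ratios between the counts of listed transcripts of 1 gene show how unequally these were counted in the sexes. For each of the genes described next, the pair of listed transcripts was chosen by the largest contrast between control females and control males, so the ratios are a description with no test. For Sxl, with 21 listed transcripts, the ratio was 2.83, 3.09 and 2.89 in MSL2 females, 0.913, 0.963 and 0.894 in control males, and 2.86 ± 0.178 (SD, n = 3) in control females. For dsx, with 3 listed transcripts, it was 1.58, 1.66 and 1.58 in MSL2 females, 0.525, 0.537 and 0.515 in control males, and 1.65 ± 0.0166 in control females. For fru, a courtship gene spliced under tra, it was 1.15, 1.16 and 1.19 in MSL2 females, 0.841, 0.881 and 0.868 in control males, and 1.22 ± 0.0192 in control females. In all 3 genes the MSL2 female libraries were apart from every male library and near the control female values.

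Some germline genes showed the same kind of difference. The ratio for exu, an RNA localization factor, was 1.05, 1.07 and 1.07 in MSL2 females and 0.590, 0.596 and 0.585 in control males. For spir, an actin nucleator, it was 1.72, 1.81 and 1.54 in MSL2 females and 0.333, 0.386 and 0.319 in control males. For aret, the RNA-binding protein Bruno, it was 1.12, 1.19 and 1.16 in MSL2 females and 0.575, 0.577 and 0.575 in control males. Calls of spir and aret therefore depend on the transcript counted. Both were lower with the most counted transcript, spir by −0.88 and aret by −0.67. With the least counted one spir was higher (0.40, edgeR adjusted p = 0.000458) and aret was not called (0.12, edgeR adjusted p = 0.574).

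**Figure D2:**
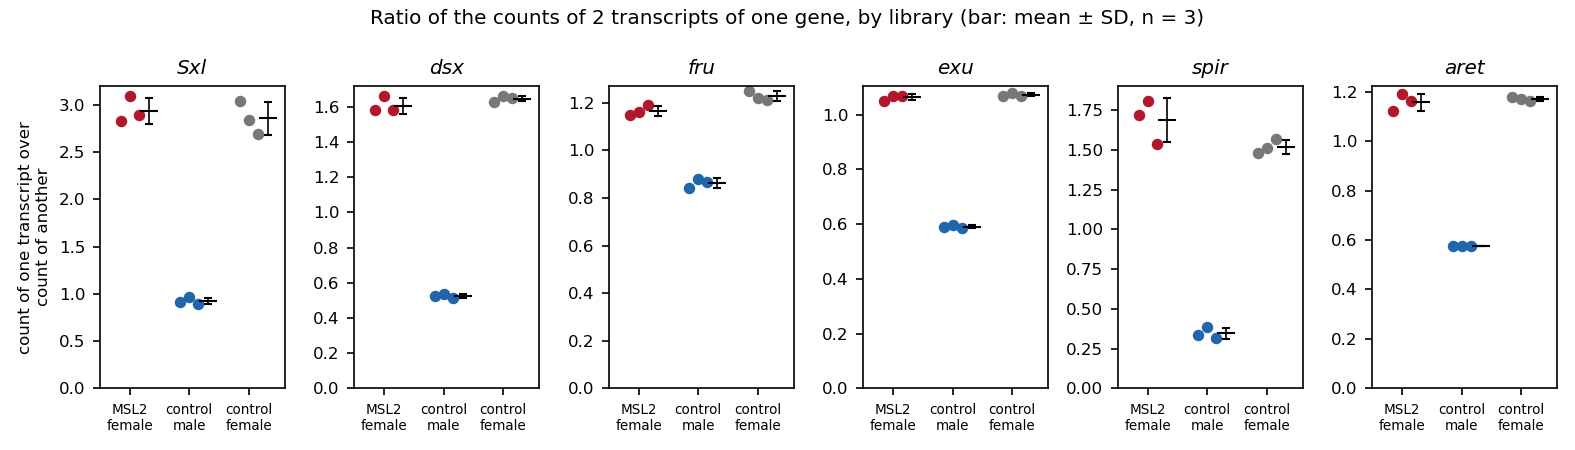
Ratio of the counts of 2 listed transcripts of 1 gene, in each of the 3 MSL2 female, 3 control male and 3 control female libraries (points) with mean ± SD (bars), for Sxl, dsx, fru, exu, spir and aret. The pair was chosen on control females against control males; in all 6 genes the MSL2 female points lie near the control female points and above every male point, for instance 2.83 to 3.09 against 0.894 to 0.963 for Sxl.

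The X chromosome was shifted upward as a whole. X-linked genes took 18.29, 18.63 and 18.88% of all counts in MSL2 females and 12.83, 12.96 and 13.07% in control males. Of 2075 X-linked genes 1217 were called higher in MSL2 females (58.7%) and 425 lower (20.5%), while 3818 of 10985 genes listed as autosomal were higher (34.8%) and 3665 lower (33.4%). The median log2 fold change was 0.54 on the X and 0.03 for the autosomal table. Between control females and control males the same medians were 0.23 and −0.06, a comparison that shares the control male libraries with this one.

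In each library, X-linked genes were then set against autosomal genes by the difference of their median log2 CPM relative to the control male mean. This difference was 0.473, 0.521 and 0.581 in MSL2 females and −0.021, 0.026 and −0.007 in control males (its value was 0.304, 0.313 and 0.237 for control female libraries). No library of any of the 3 groups fell within the range of another group. For MSL2 females against control males the exact two-sided permutation p was 0.1, the smallest that 3 against 3 libraries allow. The fitted value, 0.517, ranged from 0.488 to 0.547 over all alternatives of scaling, filter, transcript choice and left-out library, and was 0.547 without MSL2 female 1 and 0.488 without MSL2 female 3.

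Moderate fold changes made up most of the X-linked calls. Over all genes 1723 were higher by more than 2-fold (13.2%) and 2881 lower (22.1%). The most frequent fold change among X-linked genes was 0.66 on the log2 scale, a ratio of 1.58, and among autosomal genes 0.09, a ratio of 1.07. Among well expressed genes (mean log2 CPM of at least 5) 76.8% of X-linked genes were higher and 6.66% lower, and the medians were 0.65 on the X and 0.16 for autosomal genes. X-linked genes called higher by less than 2-fold made up 31.2% of the X, those between 2-fold and 4-fold 21.0%, and those above 32-fold 1.30%. The arms 2L, 2R, 3L and 3R had medians between −0.01 and 0.05. The small chromosome 4, which the protein encoded by Pof coats, had 41 of 82 genes higher (50.0%) and 6 lower (7.32%), with a median of 0.30. Over all genes 38.6% were higher and 31.3% lower. Between control females and control males the median of chromosome 4 was 0.06.

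**Figure D3:**
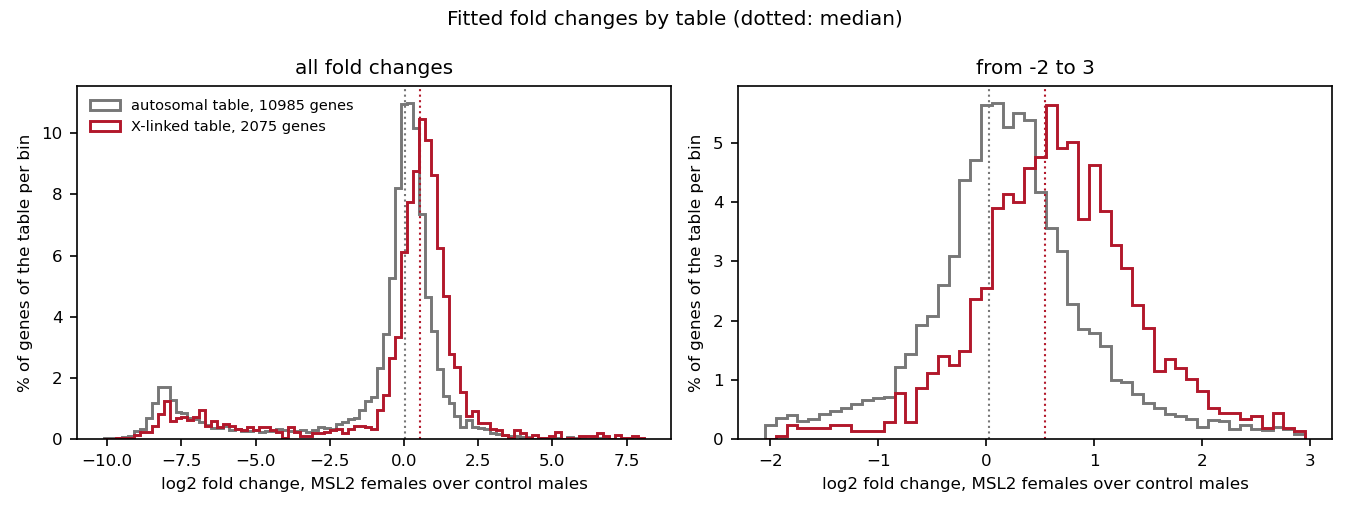
Distribution of fitted log2 fold changes, MSL2 females over control males, as the percentage of genes of each table per bin, for 10985 genes of the autosomal table (grey) and 2075 X-linked genes (red), over the whole range (left) and from −2 to 3 (right). Dotted lines mark the medians, 0.03 and 0.54; the main X-linked peak is displaced to the right, and both tables have a second, smaller group of genes near −8.

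Gene families spread over the X and the autosomes allow a comparison among genes of like function. The families described next are a selection. In some other lists, the neuronal and vitelline membrane lists among them, the X-linked median was below the autosomal one. The proteasome, which degrades tagged proteins, had 30 core and cap genes tested. All 4 X-linked members were called higher, with a median of 0.95, and 1 of 26 autosomal members was (CG17331, 0.32), with a median of −0.02. Without MSL2 female 1 the list had 4 higher and 4 lower genes. Pros28.1, a core subunit gene, stood at 342, 241 and 265 CPM in MSL2 females and 122, 137 and 115 CPM in control males (1.18 ± 0.14, edgeR adjusted p = 1.07e-05). Pros45, a cap ATPase gene, stood at 461, 306 and 314 CPM against 188, 210 and 166 CPM (0.94 ± 0.17, edgeR adjusted p = 0.000476). The cap ATPase genes Rpt3 (0.96) and Rpt4 (0.71) were the others. Only Pros45 of the 4 was also called above control females (0.66, edgeR adjusted p = 0.0374), and the median of the 4 between control females and control males was 0.39.

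Mitochondrial ribosomal protein genes were mostly higher. All 11 X-linked members were higher, with a median of 0.87, and 57 of 61 autosomal members were higher, with a median of 0.54; the ranges overlapped and the difference between the tables was not tested. mRpL49 stood at 53.7, 54.2 and 51.7 CPM in MSL2 females and 22.9, 22.8 and 22.5 CPM in control males (1.23 ± 0.06, edgeR adjusted p = 1.77e-09). mRpL33 had the largest rise (1.53) and mRpL14 rose by 1.15. Against control females 5 of 11 X-linked members were called higher and 7 of 61 autosomal members lower, with the remaining members not called, beside 6.62% of all genes higher and 3.67% lower. The medians of MSL2 females minus control females were 0.25 and −0.13.

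Cytoplasmic ribosomal protein genes rose as a block on every chromosome. All 77 canonical genes were higher, with log2 fold changes between 0.80 and 1.6 and a median of 1.04. Their summed level was 76600, 86800 and 92300 CPM in MSL2 females and 40800, 41200 and 39800 CPM in control males, or 8.53% against 4.06% of all transcripts counted. The median between control females and control males was 1.23. X-linked members had a median of 1.20 and autosomal members 1.03 against control males, while the same medians for control females were 1.16 and 1.24, so the order of the 2 tables differed between these comparisons, which share the control males.

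Eye pigment genes, several of which act in vesicle transport in all tissues, had 9 of 18 higher and 1 lower. Beside them, 38.6% of all genes were higher and 31.3% lower, and 58.7% of X-linked genes were higher. The X-linked members car (0.92), dor (0.86), g (0.91), pn (1.0) and rb (1.07) rose by similar amounts. With w they make up the 6 of 7 X-linked members called higher, v being the one not called (−0.01). Reads of w and of the mini-white marker, which control males lacked, were counted together. The rise of w can therefore not be assigned to the resident X-linked gene. Of 11 autosomal members kar (1.09), bw (0.36) and lt (0.31) were higher, and CG6969, known as cardinal, was lower (−1.68), with 3 lower genes without MSL2 female 1. The X-linked pattern recognition genes PGRP-LE and PGRP-SA both rose by 0.97 and were also above control females, by 0.51 (edgeR adjusted p = 0.00147) and 0.76 (edgeR adjusted p = 0.011).

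**Figure D4:**
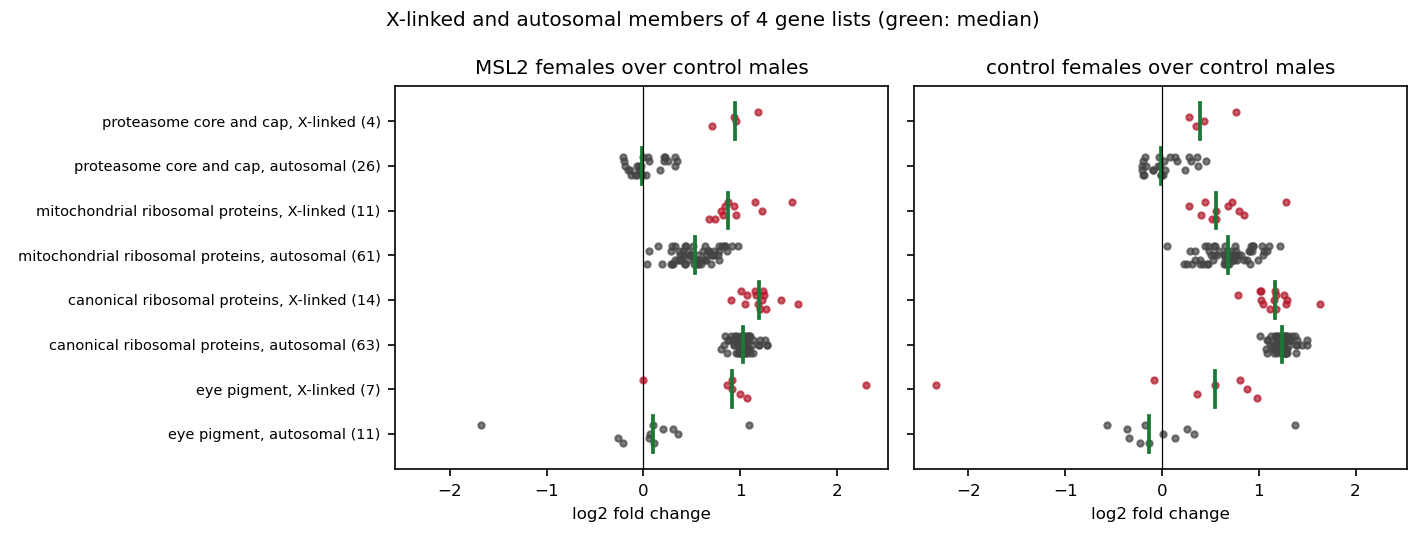
Fitted log2 fold change of the X-linked (red) and autosomal (grey) members of 4 gene lists, MSL2 females over control males (left) and control females over control males (right), each point a gene and the green bar the median. X-linked proteasome genes lie at a median of 0.95 on the left and 0.39 on the right, and autosomal ones at −0.02 and −0.01. The X-linked eye pigment genes include w, the gene of the mini-white marker that the controls lack.

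Genes called higher in MSL2 females than in control males and than in control females numbered 522 of 13060 (4.0%), and those lower than both 225 (1.72%). The X held 343 of the higher genes, 16.5% of its 2075 genes, against 179 or 1.63% of the autosomal table, while 5 X-linked and 220 autosomal genes were lower than both. These calls share the MSL2 female libraries, so a deviation of 1 such library enters both. Without MSL2 female 1, 2 or 3 the X-linked higher genes numbered 333, 263 and 398, the autosomal higher genes 128, 120 and 403, and all lower genes 233, 141 and 394. By arm, 16 of the higher genes were on 2L, 31 on 2R, 65 on 3L and 62 on 3R, and 28, 29, 60 and 102 of the lower genes, of which those on 3R made up 3.15% of its genes and those on 2L 1.16%. Chromosome 3 is the one for which only the controls carried the balancer TM3, whose part in this was not tested. The arm counts moved with the library left out: the lower genes on 2L, 2R, 3L and 3R numbered 10, 15, 40 and 72 without MSL2 female 2, and 72, 66, 94 and 151 without MSL2 female 3, when 3R stood at 4.62% and 2L at 2.96%.

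The members of this class named next were picked by size among genes whose MSL2 female libraries overlapped neither control group. After msl-2 the largest rise was in CG31041 (25.1, 38.3 and 36.5 CPM against 1.97, 1.88 and 2.16 CPM in males, 4.05). CG15043 on the X stood at 71.1, 78.3 and 60.5 CPM in MSL2 females, 10.8, 8.54 and 12.7 CPM in control males, and 36.1, 43.2 and 39.5 CPM in control females. dlp, which encodes a glypican that binds Wnt and Hedgehog proteins, stood at 44.8, 50.4 and 57.2 CPM in MSL2 females and 13.2, 14.9 and 14.3 CPM in control males. The largest fall was in tobi, an alpha-glucosidase gene that insulin and glucagon-like signals regulate, with 1.20, 1.28 and 0.821 CPM in MSL2 females against 88.2, 135 and 106 CPM in control males (−6.66 ± 0.29, edgeR adjusted p = 1.38e-09). Control females held a mean of 69.3 CPM of tobi, and MSL2 females were below them as well (−6.0, edgeR adjusted p = 1.03e-06).

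Yolk, eggshell and spermathecal genes rose in MSL2 females. The 10 largest rises, among genes with a mean log2 CPM of at least 3, were CG17012 (7.78), osk (7.74), Yp1 (7.72), alphaTub67C (7.67), Yp2 (7.55), Pxt (7.48), yl (7.31), Yp3 (7.20), Vm26Aa (7.04) and Vm26Ab (6.88). They include all 4 genes of the yolk list, 3 yolk proteins and yl, the receptor that takes them into the oocyte, whose summed level was 9180, 11400 and 14700 CPM in MSL2 females and 51.9, 92.5 and 51.7 CPM in control males. All 11 vitelline membrane genes, which build the inner eggshell, were higher with a median of 6.61. All 6 spermathecal genes, products of the female sperm storage organ, were higher as well, for instance CG17012 at 162, 119 and 97.0 CPM against 0.559, 0.975 and 0.212 CPM.

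The outer eggshell separated the MSL2 female libraries. The 10 chorion genes, switched on in the last stages of egg formation, summed to 11.5, 476 and 368 CPM in MSL2 females, 23.0, 24.4 and 21.1 CPM in control males, and a mean of 1380 CPM in control females. MSL2 female 1 was thus below every male library, and 7 of 10 genes were called higher, with a median of 4.63. Without MSL2 female 1, all 10 were called, with a median of 5.22. Leaving out any other library of the comparison lost calls. The called genes numbered 5 without MSL2 female 2, and 6 without MSL2 female 3 or any 1 control male. Cp38 shows it: 0.881, 212 and 138 CPM in MSL2 females and 0.596, 1.42 and 0.382 CPM in control males. Vitelline membrane genes were also lowest in MSL2 female 1, with 446, 1250 and 2240 CPM summed in MSL2 females and 3300 CPM in control females. MSL2 female 1 also had the highest summed muscle level, 100000 CPM against 63100 and 57700 CPM, and what part of these differences the tissue content of that library makes was not tested.

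Genes of the oocyte and the germline were higher in most but not all cases. Their counts stand beside 38.6% of all genes called higher and 31.3% called lower. Of 24 genes of the maternal axis list, which pattern the embryo from the egg, 21 were higher. osk, the determinant of the posterior pole, stood at 384, 900 and 1022 CPM in MSL2 females and 2.27, 5.22 and 3.37 CPM in control males (7.74 ± 0.46, edgeR adjusted p = 2.38e-08). bcd (5.62), swa (5.25) and nos (3.32) were higher too, and exu was lower (57.1, 126 and 167 CPM against 931, 816 and 883 CPM, −2.91 ± 0.30, edgeR adjusted p = 3.7e-06). Of 20 germline genes 13 were higher, among them vas (68, 119 and 103 CPM against 3.78, 4.09 and 3.94 CPM, 4.62) and otu (6.04). The 4 lower ones were bgcn (−4.81), capu (−2.53), spir and aret. Without MSL2 female 1 the higher genes numbered 22 of 24 in the maternal axis list and 14 of 20 in the germline list.

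The piRNA pathway, which silences transposons in the ovary, rose nearly as a whole, where 38.6% of all genes were higher and 31.3% lower. Of 20 genes 18 were higher with a median of 2.32, 1 was lower (Hen1, −0.73) and squ was not called (0.38, edgeR adjusted p = 0.263); 19 were higher without MSL2 female 1. piwi stood at 105, 168 and 161 CPM in MSL2 females and 4.45, 4.5 and 4.56 CPM in control males (5.0 ± 0.17, edgeR adjusted p = 1.32e-10). zuc (4.23), rhi (4.16), shu (3.86) and aub (3.52) followed. The X-linked gene fs(1)Yb was the one member also called above control females (0.78, edgeR adjusted p = 0.00277), with 9.36, 9.73 and 8.38 CPM in MSL2 females against 2.81, 2.76 and 2.95 CPM in control males.

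Cell cycle and meiosis genes moved in both directions. Of 24 genes 16 were higher and 4 lower, beside 38.6% of all genes higher and 31.3% lower. The higher ones numbered 17 without MSL2 female 1 and 14 without MSL2 female 3. The egg activation gene gnu stood at 24.5, 68 and 78.1 CPM in MSL2 females and 0.410, 0.395 and 0.339 CPM in control males (7.21 ± 0.49, edgeR adjusted p = 9.12e-08), and the string phosphatase gene stg (4.86), CycB (3.46) and CycA (3.20) were higher. The meiotic genes ord (−4.68), mei-218 (−2.20), twe (−1.82) and sub (−1.76) were lower; twe encodes the phosphatase that drives male meiosis.

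Large changes were mostly falls. Over all genes 1777 were called lower by more than 32-fold (13.6%), against 74 called higher by as much (0.567%). The 10 largest falls were CG31709 (−8.69), CG14740, Mst84Db, CG18266, Mst98Cb, CG15219, CG4218, CG31820, CG30376 and CG31025 (−8.44). CG31709 stood at 0.412, 0.533 and 0.782 CPM in MSL2 females and 264, 215 and 241 CPM in control males. Mst84Db and Mst98Cb encode proteins of the sperm tail. The X-linked falls of most size were CG32548 (−8.23), CG32652, CG1394, CG8565 and CG1324 (−7.93), none of which has a named function in the files.

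All 25 genes of the sperm chromatin and tail list were lower, with a median of −8.20. Their summed level was 34.6, 41.4 and 64.3 CPM in MSL2 females and 14400, 12600 and 13700 CPM in control males. The protamine gene Mst35Bb stood at 0.281, 0.213 and 0.293 CPM against 91.1, 79.1 and 85.8 CPM (−8.29 ± 0.12, edgeR adjusted p = 3.39e-12). All 13 meiotic arrest genes, which switch on the spermatocyte programme, were lower, with log2 fold changes from −8.16 to −0.44, among them sa (−7.50), aly (−6.92), mia (−0.95) and achi (−0.44). All 12 genes of the Y list were lower, for instance kl-2, a dynein of the sperm tail, with 0.075, 0 and 0.0195 CPM in MSL2 females and 13.2, 12.2 and 13.8 CPM in control males. CG40930 on the Y had no count in any MSL2 female library and 2.52, 2.21 and 2.40 CPM in males, so it was at least 35.1-fold lower, computed against a floor of 3 counts per library.

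Glands of the male tract followed. All 27 seminal fluid genes were lower with a median of −8.08. Acp70A, the sex peptide that changes female behaviour after mating, stood at 0.113, 0.178 and 0.371 CPM in MSL2 females and 73.8, 58.9 and 85.0 CPM in control males (−8.31 ± 0.40, edgeR adjusted p = 3.39e-09). Of 6 genes of the ejaculatory duct and bulb 5 were lower, with Peb at 7.56, 7.46 and 19.3 CPM against 3673, 2800 and 4905 CPM. A less extreme fall was that of Est-6, an esterase also made elsewhere in the body (163, 177 and 159 CPM against 704, 482 and 910 CPM, −2.07), and PebIII was not called (−0.18, edgeR adjusted p = 0.34).

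Low levels of male transcripts were counted in MSL2 females. Relative to the control male mean, the sperm list stood at 0.255, 0.304 and 0.473% in the 3 MSL2 female libraries, the seminal fluid list at 0.375, 0.329 and 0.709%, and the Y list at 0.565, 0.536 and 1.06%. MSL2 female 3 was the highest in these 3 lists, and single genes ranged from 0.231 to 4.74% in the seminal fluid list and up to 10.4% in the Y list. Another 3 lists were highest in MSL2 female 1: the ejaculatory list at 19.0, 15.7 and 14.3%, the meiotic arrest list at 8.53, 7.83 and 7.74%, and the testis proteasome forms at 5.59, 2.69 and 2.83%. Control males in turn held yolk transcripts at 0.441, 0.785 and 0.439% of the MSL2 female mean, with control male 2 the highest. Where these reads came from was not tested, and log2 fold changes near −8 correspond to this level. Under it, 55 genes had at most 3 counts in every MSL2 female library and at least 10 CPM in every male library, with CG13186 the most abundant (44.2, 38.2 and 42.1 CPM in males), and no gene met the reverse.

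**Figure D5:**
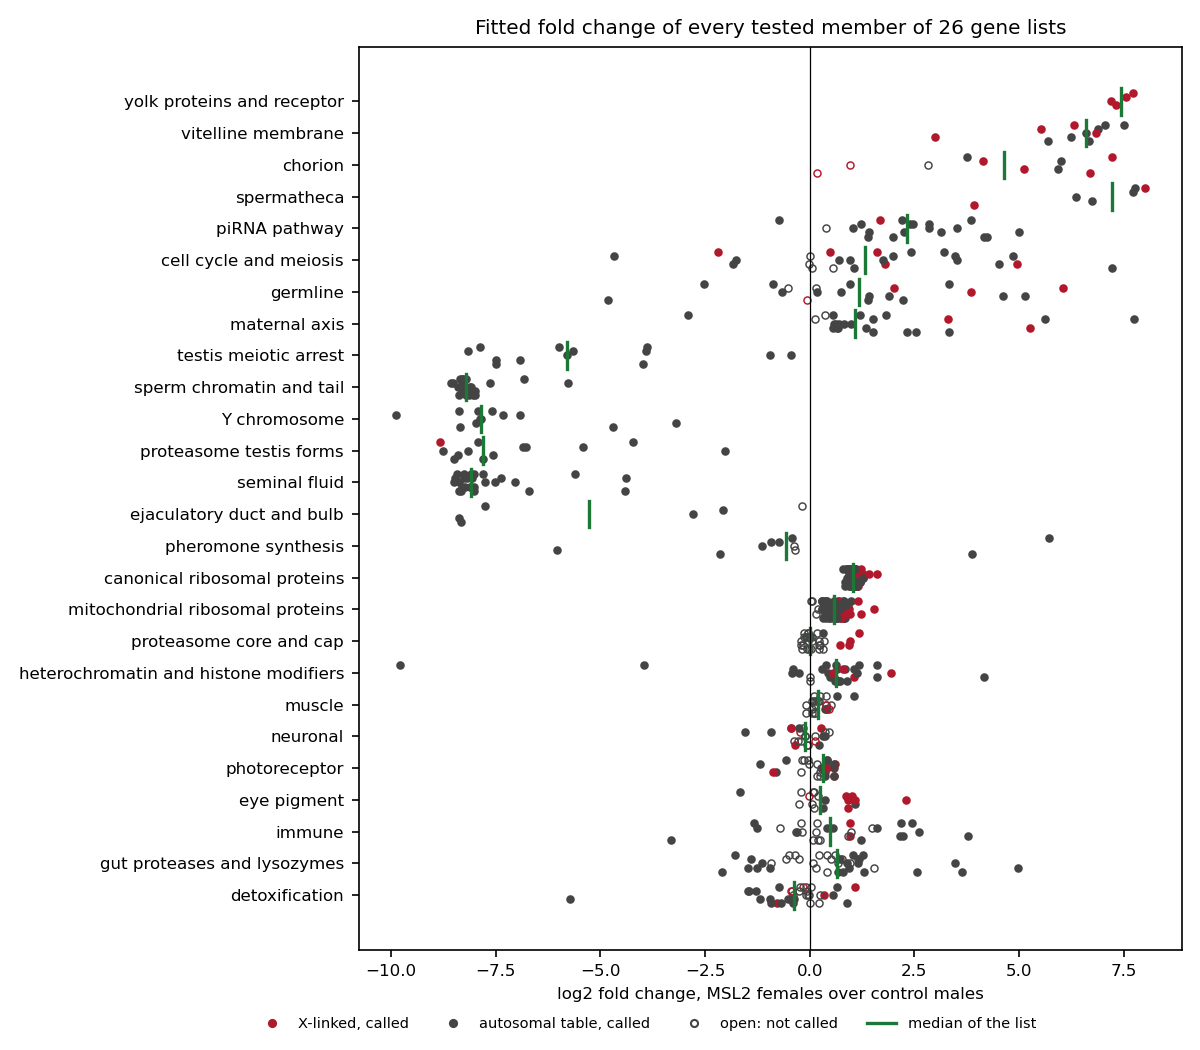
Fitted log2 fold change of every tested member of the gene lists named on the vertical axis, MSL2 females over control males; filled points were called at adjusted p under 0.05, open points were not, red points are X-linked, and green bars are list medians. Yolk, vitelline membrane and spermathecal genes lie near 7, sperm, Y and seminal fluid genes near −8, and canonical ribosomal protein genes form a narrow band around 1.04. Mitochondrial ribosomal protein genes have a median of 0.58 and run from 0.03 to 1.53.

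Several housekeeping machines have gonad-specific copies, and these moved apart from their general partners. List counts in this paragraph stand beside 38.6% of all genes called higher and 31.3% called lower. All 13 testis forms of proteasome subunits were lower (median −7.81), beside the core genes described above. Of 7 eIF4E cap-binding paralogs 2 were higher and 5 lower. The higher ones numbered 1 under RLE size factors, DESeq2, the 6 libraries alone or the least counted transcript. Among 13 ribosomal protein paralogs 6 were higher and 7 lower: the ovary form RpS5b stood at 331, 741 and 726 CPM against 24.3, 23.5 and 22.3 CPM (4.68), and RpL22-like (−7.18) and RpL10Aa (−8.04) were lower. Among 10 tubulins 3 were higher and 4 lower. alphaTub67C, the maternal form, stood at 86.3, 198 and 244 CPM in MSL2 females and 0.540, 1.30 and 0.805 CPM in control males (7.67 ± 0.48, edgeR adjusted p = 3.69e-08). betaTub85D, the sperm tail form, stood at 2.25, 2.84 and 3.91 CPM against 981, 846 and 909 CPM (−8.24 ± 0.26, edgeR adjusted p = 6.8e-11). Of 12 dynein heavy chains 10 were lower, most of them used in cilia and sperm, and the cytoplasmic form Dhc64C was higher (0.56). In the heat shock list of 21 genes 4 were higher, 5 lower and 12 not called. The lower ones included Hsp60B (−8.19), Hsp60C (−8.21), Hsp60D (−7.71) and Hsc70-2 (−5.52). Hsp60 (1.03) and Hsc70-4 (1.11) were among the higher ones.

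Chromatin genes were mostly higher. Of 30 heterochromatin and histone modifier genes 23 were higher and 5 lower (3 without control male 1 or control male 3), with a median of 0.63, where control females minus control males gave 0.79. The methyltransferase gene G9a stood at 73.9, 135 and 153 CPM in MSL2 females and 31.1, 30.9 and 32.6 CPM in control males (1.94 ± 0.22, edgeR adjusted p = 7.98e-06), and the deacetylase gene Rpd3 (1.6), Su(var)3-9 (1.17) and the gene of the heterochromatin protein HP1a (1.12) were higher. Pof, whose product paints chromosome 4, ran the other way, with 21.5, 23.3 and 19.8 CPM against 364, 307 and 334 CPM (−3.96 ± 0.10, edgeR adjusted p = 1.11e-11). HP1e had no count in MSL2 females and 2.35, 1.79 and 2.52 CPM in males, at least 33.0-fold lower. JIL-1 (−0.27), ash1 (−0.42) and Iswi (−0.41) completed the lower genes. With TMM from autosomal genes the list had 4 lower genes, and JIL-1 was then not called (edgeR adjusted p = 0.0647).

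The lists of pheromone synthesis, mating circuits, odorant binding and detoxification each held genes called in both directions. Their counts are to be read beside 38.6% of all genes called higher and 31.3% called lower. Of 10 pheromone synthesis genes 2 were higher and 6 lower. Fad2, the female desaturase of long cuticular dienes, stood at 26.3, 152 and 147 CPM in MSL2 females and 1.36, 4.20 and 0.763 CPM in control males (5.70 ± 0.80, edgeR adjusted p = 5.18e-05), and the female elongase gene eloF at 41.5, 106 and 78.9 CPM against 4.90, 6.83 and 3.81 CPM (3.86). Elo68alpha, an elongase of the male reproductive tract, stood at 1.56, 1.46 and 1.70 CPM against 97.2, 103 and 111 CPM (−6.03 ± 0.10, edgeR adjusted p = 3.53e-12). Of 7 genes of the sex peptide response and mating circuits 2 were higher and 1, dsx, was lower (2 without MSL2 female 1). SPR, the sex peptide receptor gene on the X, was higher (36.0, 34.5 and 32.7 CPM against 12.2, 10.6 and 14.0 CPM, 1.49). Odorant binding genes had 7 of 32 higher and 13 lower, and the large falls were in Obp22a (−8.40), Obp51a (−8.18), Obp56i (−8.10), Obp56f (−5.94) and Obp56g (−5.33). Cyp312a1 led the detoxification genes, 14 of 35 lower and 5 higher (3 without MSL2 female 1), with 3.62, 4.23 and 3.6 CPM against 204, 169 and 232 CPM (−5.73). Detoxification genes called lower numbered 19 under RLE size factors, library totals or DESeq2. They numbered 20 without MSL2 female 1 and 10 without control male 3.

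Photoreceptor genes were set apart from control females as well. Of 28 photoreceptor genes 15 were higher than in control males and 4 lower, with a median of 0.32. Beside them, 38.6% of all genes were higher and 31.3% lower. Against control females 13 of the 28 were called higher, whatever their call against males, where 6.62% of all genes were. The opsin gene Rh6 stood at 77.7, 71.6 and 62.5 CPM in MSL2 females, 50.8, 43.8 and 47.2 CPM in control males, and a mean of 32.1 CPM in control females (0.58 ± 0.10 against males, edgeR adjusted p = 0.000284). The phospholipase gene norpA (0.60), the channel gene trp (0.58) and the phosphatase gene rdgC (0.57) were higher by like amounts. The opsin gene Rh5 was lower than in both controls, with 9.64, 8.60 and 8.13 CPM against 21.2, 18.9 and 20.3 CPM in males (−1.20 ± 0.09, edgeR adjusted p = 2.27e-07; −1.26 against control females). The list is sensitive: with the 6 libraries alone 9 genes were called higher, and without MSL2 female 1 there were 12 higher and 7 lower. Transcripts of w, whose product carries eye pigment precursors, moved in the same direction, and their part in the photoreceptor values was not tested.

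The counts of muscle, neuronal, immune, gut and fat body genes given next are to be read against the 38.6% of all genes called higher and the 31.3% called lower. Of 24 muscle genes 3 were higher (TpnC73F 1.07, Act57B 0.64, Zasp66 0.36) and 21 were not called, with a median of 0.20. Without MSL2 female 3 the higher ones numbered 8, and without MSL2 female 1 the median was −0.04. The muscle genes Mlc2 and Mhc also had the most abundant transcripts in both groups. They were followed in MSL2 females by Ef1alpha48D, sesB and Act88F and in control males by Cyp4g1, Ca-P60A and sesB. Of 23 neuronal genes 4 were higher and 6 lower, and the split depended on the setting: 11 were lower with RLE factors, 10 with library totals and 12 with DESeq2, and 1 was higher with the 6 libraries alone or the least counted transcript. Without MSL2 female 1 there were 9 lower genes. The largest falls were the acetylcholine receptor gene nAcRalpha-96Aa (−1.55) and the active zone gene brp (25.3, 20.6 and 22.6 CPM against 39.8, 46.2 and 43.3 CPM, −0.92). Of 28 immune genes 12 were higher and 4 lower, the latter 2 without MSL2 female 3, control male 1 or control male 3. The antifungal peptide gene Drs stood at 99.1, 133 and 104 CPM against 27.6, 24.9 and 23.2 CPM (2.15 ± 0.15, edgeR adjusted p = 9.84e-08), and the antibacterial peptide gene CecA1 was lower (0.394, 1.78 and 1.07 CPM against 10.7, 8.29 and 11.2 CPM, −3.31). Of 38 gut protease and lysozyme genes 14 were higher and 7 lower, with the serine protease gene Jon65Aii at 40.1, 73.1 and 88.7 CPM against 10.8, 7.92 and 15.5 CPM (2.56); leaving out 1 library gave between 8 higher (without MSL2 female 2, MSL2 female 3 or control male 2) and 20 (without MSL2 female 1), with 9 without control male 1 and 19 without control male 3. Of 19 fat body genes 6 were higher and 2 lower, among them the storage protein gene Lsp1alpha (1.95) and Fbp1 (1.27), the receptor gene for storage proteins. Of 5 Turandot stress genes tested 2 were lower (TotA −1.13, TotX −1.03) and 3 were not called.

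Some genes stood on the other side of control males from control females. The 5 with the firmest difference from control females in each direction were msl-2, w, CG42330, msta and Rh6 above males, and LysC, HGTX, LysD, LysB and LysE below them. CG42330 stood at 18.5, 21.5 and 19.4 CPM in MSL2 females, 11.8, 11.4 and 11.2 CPM in control males, and 7.26, 7.54 and 8.19 CPM in control females. msta on the X stood at 50.6, 43.2 and 41.4 CPM in MSL2 females, 27.6, 27.2 and 27.1 CPM in control males, and 22.3, 25 and 24.1 CPM in control females. HGTX, a homeobox gene, stood at 1.39, 1.07 and 1.11 CPM in MSL2 females, 3.24, 2.79 and 3.43 CPM in control males, and 4.75, 5.33 and 4.62 CPM in control females. The lysozyme genes lie together on 3L and are near-identical, so their reads are shared; LysC stood at 33.7, 34.7 and 30.7 CPM in MSL2 females, 155, 92.2 and 176 CPM in control males, and 488, 528 and 289 CPM in control females.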

How the data were processed

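RNA of whole adult flies was extracted with TRIZOL and sequenced from Illumina TruSeq libraries, per the labels' protocols. The submitters' processing notes name TopHat, HTSeq and build dm3 without versions; annotation release, counting mode and strand setting were not given in the labels. The authors deposited raw read counts per transcript in 1 autosomal and 1 X-linked table. A normalized column beside them, which the deposited values show to be a fraction of its own table's total (largest difference 5.00e-10), removes any shift between tables and was not used.

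The most counted transcript was kept for each of 14161 genes, since transcripts of 1 gene share reads. Overlapping and antisense genes cannot be separated, and near-identical lysozymes and tubulins are uncertain. Arms came from RefSeq genes of the later assembly Release 6 plus ISO1 MT, from which no position is printed. By accession 17985 of 19040 autosomal-table transcripts were found and 959 more by name; the X-linked table gave 3523 and 161 of 3698. The 18 tested Y genes sit in the autosomal table. A row of totals in each table was left out.

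The test was edgeR 4.0.16 under R 4.3.3. It used TMM factors from both tables, a filterByExpr minimum of 10 counts, 1 quasi-likelihood fit of the means of all 4 groups (12 libraries, MSL2 males included), and Benjamini-Hochberg adjustment over 13060 genes with a threshold of 0.05 and no minimum fold. Log2 CPM has a prior count of 2. Alternatives were other scalings, DESeq2 1.42.0, no filter, the 6 libraries alone, a replicate block, the least counted transcript and leaving out each library.

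Members, tests and the 38 gene lists (779 genes, 772 tested, 12 further symbols unmatched) were chosen with earlier results of these data known. Named genes are the MSL complex list, the 10 largest rises and falls and 5 and 5 on the X among genes whose libraries do not overlap and whose mean log2 CPM reaches 3, up to 4 members per list by smallest p and up to 4 that ran against it, the 5 most abundant genes per group, and 5 in each direction on the other side of males from control females. Other list members, the transcript pairs and the genes set against both controls were picked after their values were seen.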

Additional observations from a re-analysis of the deposited data

How the results depend on the processing

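The X minus autosome difference kept its sign under all alternatives run, and the higher, lower and total counts stayed within 1.5 times except as given next. Which of the higher and lower counts was larger depended on scaling, with 4453 higher and 4541 lower under RLE size factors and 4543 and 4600 under DESeq2, against 5035 and 4090 with TMM. Requiring over 2-fold as well left 4604 of 9125 genes. Leaving out 1 library gave 8703 to 9604 genes called, 4808 to 5043 higher and 3758 to 4603 lower. Replicate numbers did not pair libraries (correlations of same-numbered deviations 0.0177, −0.0333 and 0.245), and a fit with the replicate block called 8817 genes. Scaling moves small changes: the median of all genes was 0.089 with TMM, −0.002 with RLE size factors, 0.172 with TMM from autosomal genes, 0.048 with library totals and −0.003 with DESeq2, and 55.2, 49.5, 59.1, 52.7 and 49.7% of calls were higher. Of 223 named genes 25 changed a call or sign under any alternative. With the least counted transcript dsx reversed to 0.569, spir to 0.396, aret to 0.118 and alphaTub84D to 0.748, and TotC, not called at −0.383, ranged from −0.975 to 1.345 when 1 library was left out, the last without control male 1; the cause was not tested. The MSL complex list had 3 genes higher under RLE, library totals, DESeq2, the 6 libraries alone and the least counted transcript, since mle and CG1832 were then lost. Neuronal genes called lower ranged up to 12, under DESeq2. Genes under about 0.1 CPM are at the counting floor, and the shallowest library, MSL2 female 2, sets it at 0.107 CPM.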
